A study of Homo sapiens with 12 samples.

Results

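Spheroids of HepG2, a human liver tumour line that keeps many hepatocyte functions, were compared between HIF-2α knockdown and HIF-1α knockdown. The comparison was made on the 8 arrays whose genotype label is one of these knockdowns, 4 of each, out of 12 arrays in the series. The other 4 arrays are wild type HepG2 spheroids. All spheroids were 10 days old and were grown in stirred flasks, and each group's 4 arrays come from different spheroid experiments per the series' design text. The labels name neither the construct used for each knockdown nor its clonality, and they mention no control construct for wild type. RNA was amplified with a NuGEN kit, labelled with biotin and hybridised to Affymetrix gene arrays. The comparison covers 18404 genes, each represented by its brightest probe set among those with exactly 1 gene symbol.

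Hypoxia-inducible factors are pairs of an oxygen-regulated α subunit with the constant partner ARNT. When oxygen is plentiful the α subunits are hydroxylated, bound by VHL and degraded. When it is scarce, as in the inner layers of a spheroid, they accumulate and bind a short DNA core in the promoters and enhancers of their targets. HIF-1α is best known for glycolytic genes, and HIF-2α for erythropoietin and iron genes, with many shared targets. The direct comparison of the knockdowns asks which transcripts respond differently to losing one subunit or the other, since the wild type arrays cancel when the change of one knockdown is subtracted from that of the other.

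Values are log2 expression as the authors deposited them, and a difference is the HIF-2α knockdown mean minus the HIF-1α knockdown mean on that scale. A gene is called when its adjusted p lies below 0.05 (limma fitted to all 12 arrays, Benjamini-Hochberg over the 18404 genes), and "higher" or "lower" refers to HIF-2α knockdown relative to HIF-1α knockdown. Where array values of a gene are joined by "against", those of HIF-2α knockdown come first. Each SE is the moderated one of limma. The fit was repeated 12 times with 1 array left out, and the number of those fits that call a gene is given where it is below 12. Nothing in the labels marks the arrays as technical or biological repeats beyond the separate experiments, so p-values reflect array-to-array spread, part of which may be technical. In these bulk samples, fewer cells expressing a gene and less RNA per cell cannot be told apart.

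HepG2 identity was checked with markers. Of 11 measured hepatocyte markers 10 lay above the median gene level of 7.69, led by APOB at a mean of 13.7. By limma 0 of the 11 were called between the knockdowns, and 3 had an unadjusted p under 0.05. Of the 11, 8 had a positive difference (median 0.18, against -0.01 over all genes). Their mean was 12.04 and 12.06 in HIF-2α knockdown replicates 2 and 4, and 11.54 and 11.72 in replicates 1 and 3. In HIF-1α knockdown it was 11.51 to 11.77. Of 12 endothelial and 12 fibroblast or stellate markers 1 each lay above that level, namely PECAM1 and ACTA2. Above it were also 3 of 15 leukocyte markers, LYZ highest at 13.19, and 4 of 9 cholangiocyte markers, SPP1 highest at 12.43. PTPRC, the pan-leukocyte marker, was at 6.52, and CFTR, of bile duct cells, at 6.49. PDGFRB, a growth factor receptor of stellate cells, was lower by limma (difference -0.35, SE 0.06, adjusted p = 0.0105), at 7.07 to 7.35 against 7.48 to 7.58, all under the median gene level. Of 15 leukocyte markers CD14 (difference -0.39, SE 0.07, limma adjusted p = 0.00899) and FCER1G (difference -0.32, SE 0.08, limma adjusted p = 0.0444, called in 4 of 12 fits) were lower. Their part in the results was not tested. One library was far from the rest in a principal component analysis: replicate 2 of HIF-2α knockdown scored 25.26 on the leading axis, and the other arrays -11.82 to 3.26. Replicate 4 of the same group had dim probe sets at higher values, its 0.1 percentile being 6.35 against 6.17 to 6.23 on the other knockdown arrays, as had wild type replicates 1 and 2 (6.34 and 6.33). These are called the 3 raised-floor arrays. Without them PDGFRB and CD14 were not called (limma adjusted p = 0.0553 and 0.0555).

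The targeted transcripts separated the groups in opposite directions. HIF1A, which encodes HIF-1α, read 9.25, 9.58, 9.38 and 9.64 in HIF-1α knockdown and 10.86, 11.46, 10.52 and 10.92 in HIF-2α knockdown. It was thus 2.78-fold higher in HIF-2α knockdown (difference 1.48, SE 0.15, limma adjusted p = 0.000149, two-sided exact permutation p = 0.0286, the smallest that 4 against 4 arrays can give). EPAS1, which encodes HIF-2α, read 11.02, 10.87, 11.08 and 10.95 in HIF-1α knockdown and 9.67, 10.02, 9.87 and 9.98 in HIF-2α knockdown. It was 2.13-fold lower (difference -1.09, SE 0.09, limma adjusted p = 3.66e-05, exact permutation p = 0.0286). Neither gene's arrays overlapped between the groups. Of the other subunits, hydroxylases and cofactors in the list of 13 measured genes, CITED2, which competes with HIF for its coactivators, was also lower (difference -0.53, SE 0.10, limma adjusted p = 0.0108), though not without the 3 raised-floor arrays (adjusted p = 0.067). The other 10, among them ARNT, the shared partner, and VHL, did not pass.

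In all, 509 of 18404 genes were called, 2.77% of those tested, with 178 higher (0.967%) and 331 lower (1.8%). These shares are the background for each count of called list members below. Most differences were small: the median size among called genes was 0.413 on the log2 scale, or 1.33-fold. A 2-fold size was reached by 10 of the higher and 17 of the lower genes, and a 1.5-fold size by 39 and 76. For 491 of the called genes every array of one knockdown lay above every array of the other, 172 of them higher and 319 lower. Over all genes tested 9.08% separated in this way, 3.73% higher and 5.35% lower. The number of calls depended on single arrays. Without HIF-1α knockdown replicates 1, 2, 3 and 4 in turn, 112, 86, 79 and 106 genes were higher, and without HIF-2α knockdown replicates 2 and 4, 116 each. Genes called lower numbered 193, 132 and 207 without HIF-1α knockdown replicates 2, 3 and 4, and 215 and 158 without HIF-2α knockdown replicates 3 and 4. A core of 196 genes, 71 higher and 125 lower, was called in each of the 12 fits that left out 1 array. The others lost their call in at least 1 of them. Without the 3 raised-floor arrays 119 genes were higher and 140 lower, and 41 of the 102 named genes were not called.

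**Figure D1:**
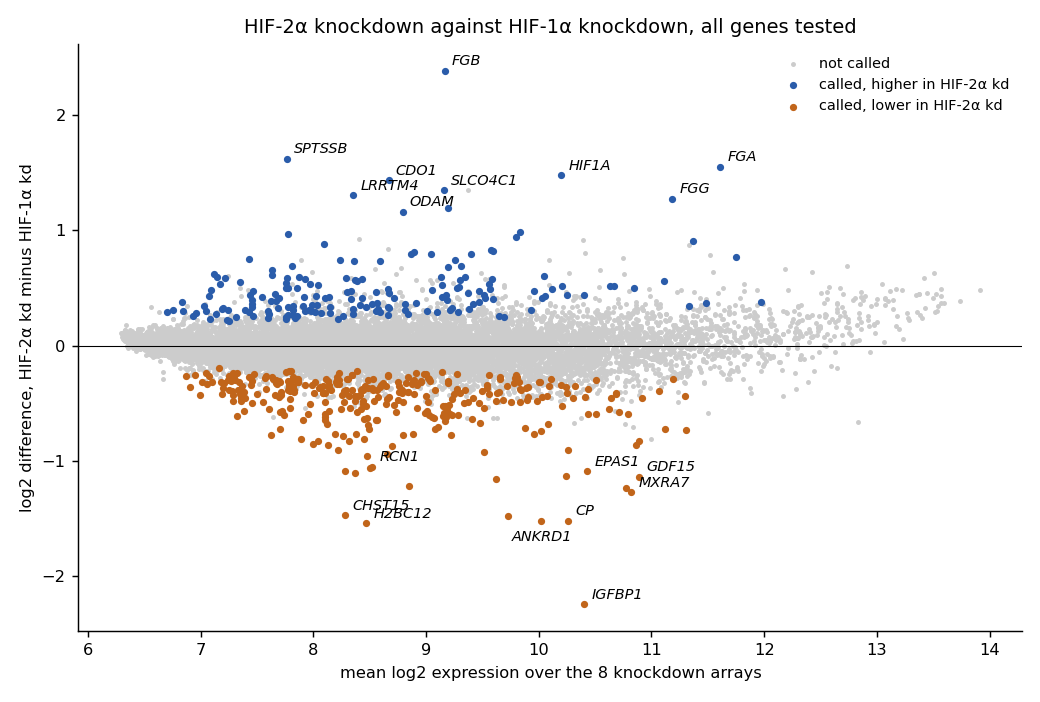
Difference between the knockdowns (HIF-2α minus HIF-1α, log2, vertical axis) against the mean log2 expression over the 8 knockdown arrays (horizontal axis) for 18404 genes; kd stands for knockdown. Blue points are the 178 genes called higher and orange points the 331 called lower. FGB at 2.38 and IGFBP1 at -2.24 lie farthest from 0.

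The 3 fibrinogen chains were among the 8 largest rises. Fibrinogen is the soluble plasma protein that thrombin turns into the fibrin of a clot. Hepatocytes assemble it from 3 chains, whose gene starts lie within 50.2 kb of each other on chromosome 4. FGB, the β chain, read 8.16, 8.02, 7.94 and 7.78 in HIF-1α knockdown and 10.30, 10.53, 10.04 and 10.56 in HIF-2α knockdown. The gap of 2.38 (SE 0.11), a 5.22-fold difference, was the largest of all genes (limma adjusted p = 1.66e-07). FGA, the α chain, read 12.24, 12.51, 12.20 and 12.60 against 10.98, 10.78, 10.88 and 10.71, a 2.93-fold difference (SE 0.12, limma adjusted p = 1.68e-05). FGG, the γ chain, read 10.38 to 10.70 in HIF-1α knockdown and 11.43 to 12.03 in HIF-2α knockdown, a 2.42-fold difference (SE 0.12, limma adjusted p = 0.000107). No array of one knockdown overlapped the other for any chain.

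Because the 3 chains moved together, their promoters are shown, with RefSeq sequences of GRCh38.p14 from 250 bases before to 50 bases after the transcript start, each written 5′ to 3′ on the gene's own strand. For FGB the table holds 2 starts, and the first is given. Capitals mark CTGGGAA, the core of the IL-6 response element through which acute-phase signals act on fibrinogen genes, searched on both strands.
FGB chr4:154562730-154563029 (+ strand): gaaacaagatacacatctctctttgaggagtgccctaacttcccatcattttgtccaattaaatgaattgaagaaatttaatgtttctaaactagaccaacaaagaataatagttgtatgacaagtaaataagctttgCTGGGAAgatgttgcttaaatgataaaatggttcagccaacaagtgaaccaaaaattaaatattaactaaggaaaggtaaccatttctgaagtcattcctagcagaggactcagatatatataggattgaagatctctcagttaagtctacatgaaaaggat
FGA chr4:154590693-154590992 (- strand): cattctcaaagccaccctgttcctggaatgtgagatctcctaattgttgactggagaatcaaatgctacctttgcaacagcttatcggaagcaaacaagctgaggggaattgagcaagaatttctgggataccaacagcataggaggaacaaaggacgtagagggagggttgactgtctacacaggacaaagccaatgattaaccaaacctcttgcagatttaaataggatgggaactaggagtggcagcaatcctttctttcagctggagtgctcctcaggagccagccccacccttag
FGG chr4:154612607-154612906 (- strand): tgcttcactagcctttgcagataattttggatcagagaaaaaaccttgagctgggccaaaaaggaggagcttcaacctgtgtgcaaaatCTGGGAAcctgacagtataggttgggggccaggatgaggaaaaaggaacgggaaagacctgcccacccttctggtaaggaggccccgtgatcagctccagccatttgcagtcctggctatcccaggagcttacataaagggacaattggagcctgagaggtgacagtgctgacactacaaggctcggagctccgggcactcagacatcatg
The motif occurs once in FGB, at -112 from the start, and once in FGG, at -161, and in 10.8% of the 35116 promoter windows in the table. FGA has no match to these letters in its window. The hypoxia response element core, ACGTG or GCGTG on either strand, has 0 matches in the 3 windows.

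Other clotting and plasma proteins did not follow the fibrinogen chains as a block. Of 26 measured clotting genes, the fibrinogen chains included, 4 were higher and 1 was lower, where 0.967% and 1.8% of all genes were. The higher ones were FGB, FGA, FGG and F11, so F11 was the 1 besides the chains. The other 21 did not pass, and the median of the list was 0.02 against -0.01 over all genes. The list was drawn up with earlier results of these data known, as were the others below. F11, the zymogen of factor XI, was higher at 9.47 to 9.77 against 9.05 to 9.25 (difference 0.45, SE 0.08, limma adjusted p = 0.00796). PROZ, the vitamin K-dependent protein Z, was lower (difference -0.62, SE 0.11, limma adjusted p = 0.00931); it lies outside the naming rule, was chosen after its values were seen, and was not called without the 3 raised-floor arrays. Among 32 complement and acute-phase genes 2 were higher and 1 lower. Of these HPX, called higher, passed in 5 of 12 fits. C1S, the complement C1s protease, was lower at 7.22 to 7.34 against 7.57 to 7.84 (difference -0.42, SE 0.07, limma adjusted p = 0.00353). C6, a terminal complement component, was higher by 0.37 (SE 0.07, limma adjusted p = 0.0143), and passed in 9 of 12 fits. It lost its call without HIF-1α knockdown replicate 2 (adjusted p = 0.0502), HIF-1α knockdown replicate 3 (0.0567) and HIF-2α knockdown replicate 4 (0.0529).

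The largest fall was in IGFBP1, which encodes a secreted protein that sequesters insulin-like growth factors. It read 11.16, 11.55, 12.05 and 11.33 in HIF-1α knockdown and 8.69, 9.94, 9.49 and 9.0 in HIF-2α knockdown. Every HIF-2α knockdown array thus lay below every HIF-1α knockdown array, by 4.74-fold on average (difference -2.24, SE 0.27, limma adjusted p = 0.000518). Of 16 measured genes of the IGF system 3 were lower (1.8% of all genes were) and the other 13 did not pass. IGF2R was lower by 0.35 (SE 0.08, limma adjusted p = 0.0286, called in 6 of 12 fits). IGFBP4, another IGF-binding protein, was at 9.57 to 9.73 against 9.94 to 10.17 (difference -0.39, SE 0.07, limma adjusted p = 0.0125). Without the 3 raised-floor arrays its call was lost (limma adjusted p = 0.0785), and IGFBP1 was the 1 IGF gene that was lower.

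CP, which encodes the ferroxidase ceruloplasmin, read 10.60, 11.06, 11.26 and 11.17 in HIF-1α knockdown and 9.26, 9.88, 9.42 and 9.44 in HIF-2α knockdown. The arrays did not overlap, and the difference was 2.86-fold (-1.52, SE 0.18, limma adjusted p = 0.000444). SLC40A1, the iron exporter ferroportin that works together with ferroxidases, was lower as well, at 8.11, 8.50, 8.03 and 7.91 against 8.66, 8.90, 8.95 and 8.92 (difference -0.72, SE 0.13, limma adjusted p = 0.0105). The call of SLC40A1 was lost without the 3 raised-floor arrays (limma adjusted p = 0.057). These are the 2 of 23 iron-handling genes that were lower. STEAP2, a metalloreductase, was the 1 called higher (difference 0.32, SE 0.07, limma adjusted p = 0.0308, called in 5 of 12 fits). The median of the list was 0.05.

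**Figure D2:**
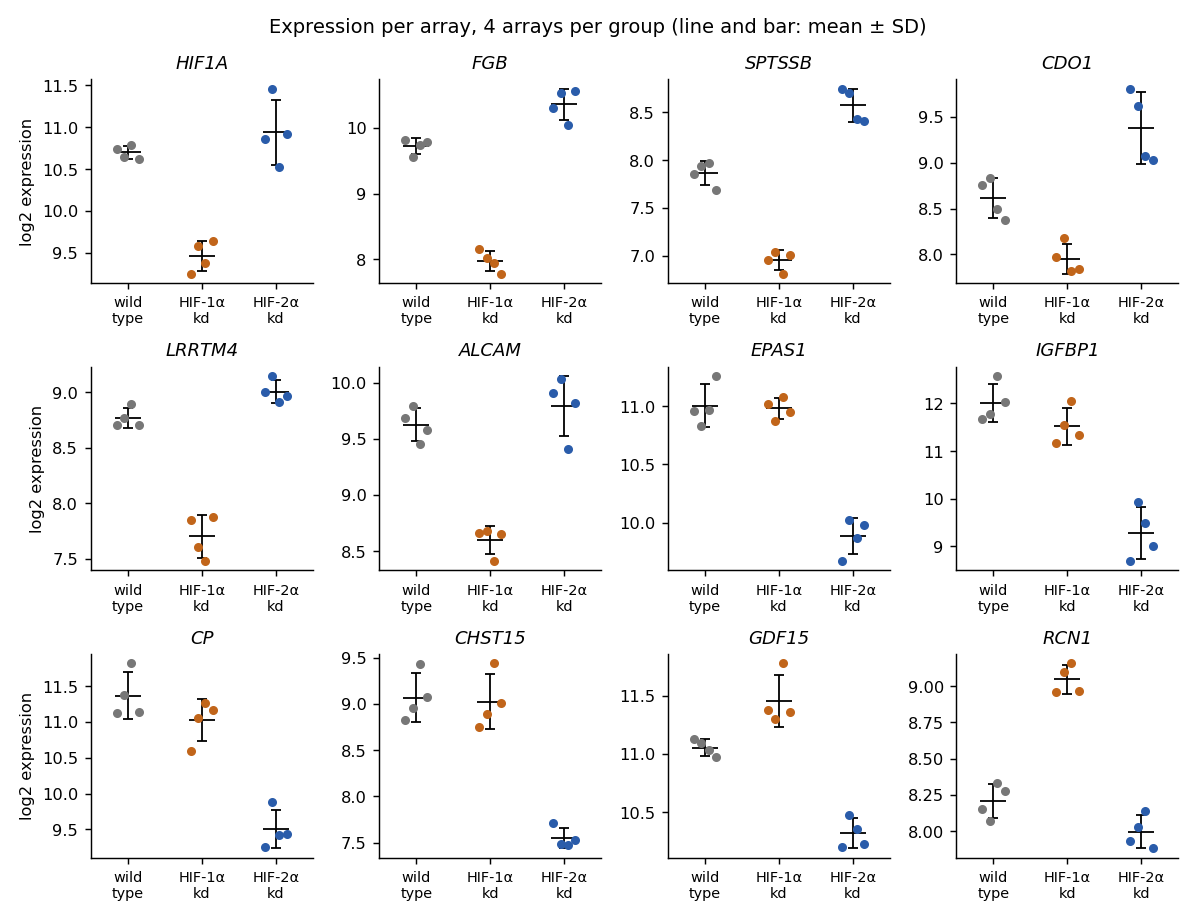
Log2 expression (vertical axis, scaled per gene) on every array for 12 of the named genes, by group (kd, knockdown); points are arrays, and the line and bar give the mean ± SD of 4 arrays. The first 6 panels, from HIF1A to ALCAM, are lower in HIF-1α knockdown than in HIF-2α knockdown, and EPAS1, IGFBP1, CP, CHST15, GDF15 and RCN1 are the reverse, with no overlap of the knockdown arrays in any panel.

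Hypoxia-induced genes differed in a few members. Of 39 measured targets 4 were lower (1.8% of all genes were), 1 was higher and 34 did not pass, with a median of -0.07. BHLHE40, a circadian and hypoxia-responsive transcription factor, read 8.77, 8.99, 9.21 and 8.86 in HIF-1α knockdown and 7.81, 8.29, 8.12 and 7.75 in HIF-2α knockdown (1.95-fold lower, SE 0.13, limma adjusted p = 0.00124). NDRG1, a stress-responsive differentiation gene, read 9.39, 9.75, 9.64 and 9.30 against 10.18, 10.19, 10.42 and 10.16 (1.64-fold lower, SE 0.12, limma adjusted p = 0.00682). Both separated the groups on every array. LOX, which cross-links collagen, was lower by 0.76 (SE 0.17, limma adjusted p = 0.0302), but its arrays overlapped, at 9.28 to 9.97 against 9.93 to 10.73, and it passed in 6 of 12 fits. CITED2 was given above. Without the 3 raised-floor arrays 2 of the 39 were lower. TMEM45A, the 1 higher member, had a difference of 0.53 (SE 0.13, limma adjusted p = 0.0492, called in 4 of 12 fits) and was named after its values were seen.

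Glycolysis breaks glucose down without needing oxygen. Of 23 measured glucose transporters and glycolytic enzymes PFKP, the platelet-type phosphofructokinase, was the 1 called, lower by 0.26 (SE 0.06, limma adjusted p = 0.0463, called in 3 of 12 fits). The list median was 0.00, with 12 members positive and 11 negative. Of 16 gluconeogenesis and glycogen genes, 18 sterol synthesis genes, 22 fatty acid oxidation genes and 51 oxidative phosphorylation genes, 0 were called by limma. In these lists 1, 1, 4 and 5 genes had an unadjusted limma p under 0.05, against 2500 of all 18404 genes. A p above the threshold does not show that the genes of these lists were equal in the knockdowns.

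For 3 genes that were lower in HIF-2α knockdown, promoters are shown because they hold the hypoxia response element core. That they have matches was thus fixed by the choice. BHLHE40 comes from the hypoxia-induced targets and CHST15 from the genes of sulfated matrix sugars. SERPINE2 was called on opposite sides of wild type, in the reverse order to the other such genes. FGB and FGG are among those others, and their windows above hold 0 matches. The windows of the rest are not shown, so these examples do not tie the core to a direction. Capitals mark ACGTG or GCGTG on either strand, so that CACGT and CACGC are matches on the opposite strand; the palindrome CACGTG counts as 2 overlapping matches. The windows are as described for the fibrinogen genes, and for SERPINE2 the first of 2 starts is given.
BHLHE40 chr3:4979187-4979486 (+ strand): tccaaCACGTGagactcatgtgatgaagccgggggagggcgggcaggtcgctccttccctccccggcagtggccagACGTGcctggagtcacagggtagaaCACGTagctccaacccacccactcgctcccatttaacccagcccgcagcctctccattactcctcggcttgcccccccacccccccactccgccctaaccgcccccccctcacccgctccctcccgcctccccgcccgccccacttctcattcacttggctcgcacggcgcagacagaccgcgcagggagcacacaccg
CHST15 chr10:124093549-124093848 (- strand): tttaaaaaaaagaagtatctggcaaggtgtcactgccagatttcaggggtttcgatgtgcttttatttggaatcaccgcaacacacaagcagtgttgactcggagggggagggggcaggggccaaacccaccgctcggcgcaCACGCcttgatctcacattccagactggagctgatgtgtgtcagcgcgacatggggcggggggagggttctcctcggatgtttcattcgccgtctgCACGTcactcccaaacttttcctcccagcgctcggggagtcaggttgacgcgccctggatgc
SERPINE2 chr2:224031429-224031728 (- strand): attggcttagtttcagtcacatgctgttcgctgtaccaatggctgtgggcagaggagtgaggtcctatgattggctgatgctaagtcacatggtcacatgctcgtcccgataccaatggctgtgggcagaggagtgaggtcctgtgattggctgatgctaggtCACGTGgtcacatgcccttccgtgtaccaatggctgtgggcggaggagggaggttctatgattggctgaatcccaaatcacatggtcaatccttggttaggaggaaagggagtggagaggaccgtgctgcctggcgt
BHLHE40 has 4 matches, CHST15 2 and SERPINE2 2. The core is common: 48.4% of all windows hold it. Counting a gene when any of its windows has a match, it is present in 59.7% of 144 higher genes with a window, 69.3% of 264 lower genes and 62.8% of 14230 tested genes. These shares describe letters in short windows and not binding.

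Genes of the matrix around the cells were lower in several roles. Of 51 measured matrix proteins and modifying enzymes 10 were lower (1.8% of all genes were), 1 was higher and 40 did not pass. NID1, the basement membrane linker nidogen, read 10.84, 10.58, 10.82 and 10.71 in HIF-1α knockdown and 10.10, 10.20, 10.13 and 10.15 in HIF-2α knockdown (difference -0.59, SE 0.06, limma adjusted p = 0.000149). The metalloproteinase inhibitor TIMP3 was at 9.28 to 9.54 against 9.78 to 9.99 (difference -0.48, SE 0.07, limma adjusted p = 0.00271). Neither gene's arrays overlapped.

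CCN2, a matricellular growth factor, was at 10.76 to 11.18 against 11.56 to 11.93 (difference -0.73, SE 0.11, limma adjusted p = 0.00326). MXRA7 was lower by 1.27 (SE 0.20, limma adjusted p = 0.00336) on its brightest of 4 probe sets, and by 0.59 over the mean of the 4 (adjusted p = 0.000674), so its size depends on the probe set. The 1 higher member was NPNT, the integrin ligand nephronectin, at 8.98 to 9.70 against 8.31 to 8.84 (difference 0.81, SE 0.18, limma adjusted p = 0.0261, called in 7 of 12 fits). The other lower members were TIMP1, TIMP2, LOX, LOXL4, MMP14 and SPARC, at differences from -0.28 for MMP14 to -0.81 for SPARC. Of these, TIMP1 and LOX were called in 6 of 12 fits and MMP14 and SPARC in 9. With HIF-2α knockdown replicate 2 left out, 10 matrix genes were lower and NPNT was no longer called. Without the 3 arrays that have a raised floor 6 were lower. TIMP1, TIMP2, LOXL4, MMP14, SPARC and NPNT were named after their values were seen.

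CHST15, which adds a second sulfate to chondroitin sulfate chains, read 8.75, 8.89, 9.44 and 9.01 in HIF-1α knockdown and 7.71, 7.48, 7.47 and 7.53 in HIF-2α knockdown. The HIF-2α knockdown arrays lay close together and far below the others, a 2.77-fold difference (-1.47, SE 0.14, limma adjusted p = 0.000113). CSGALNACT2, which starts chondroitin chains, was lower by 0.55 (SE 0.09, limma adjusted p = 0.00349), at 8.05 to 8.27 against 8.49 to 8.88. Its relative CSGALNACT1 was lower by 0.32 (SE 0.07, limma adjusted p = 0.0219, called in 8 of 12 fits). Of 21 measured genes of chondroitin sulfate synthesis these 3 were called, the other 18 did not pass, and 19 had a negative difference (median -0.11). Among all 18404 genes 1.8% were lower and 10185 had a negative difference. Without the 3 raised-floor arrays 2 of the 21 were lower, and CSGALNACT1 was not called (limma adjusted p = 0.0555). With median centring 2 were lower as well.

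SERPINE2, an inhibitor of thrombin and plasminogen activators, was lower at 7.74, 7.89, 7.57 and 7.59 against 8.46, 8.64, 8.58 and 8.57 (difference -0.86, SE 0.07, limma adjusted p = 3.66e-05). It was the 1 of 10 plasminogen activator genes that was called.

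Cell surface adhesion molecules moved in both directions. ALCAM, an immunoglobulin-type adhesion molecule, was higher, at 9.91, 10.03, 9.41 and 9.82 against 8.66, 8.68, 8.41 and 8.65 (2.28-fold, SE 0.12, limma adjusted p = 0.00012). ICAM1, the leukocyte ligand, was lower, at 9.02 to 9.22 against 9.69 to 9.97 (difference -0.67, SE 0.09, limma adjusted p = 0.00132). Of 37 measured adhesion and junction genes 2 were higher and 5 lower, where 0.967% and 1.8% of all genes were. The other 30 did not pass. NRCAM, the other higher gene, passed in 7 of 12 fits. ITGB5, DSP, CEACAM1 and ITGA2, the other lower genes, passed in 11, 6, 4 and 4. DSP, CEACAM1 and ITGA2 were named after their values were seen. Without the 3 raised-floor arrays 1 gene of the list was higher and 1 lower.

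GDF15, a stress-induced cytokine of the TGF-β family, read 11.38, 11.30, 11.78 and 11.36 in HIF-1α knockdown and 10.20, 10.48, 10.36 and 10.23 in HIF-2α knockdown (2.20-fold lower, SE 0.10, limma adjusted p = 3.66e-05). FST, the activin antagonist follistatin, read 8.98, 9.26, 9.12 and 8.59 against 10.19, 10.48, 10.81 and 10.41 (2.79-fold lower, SE 0.21, limma adjusted p = 0.00154). The coreceptor TGFBR3 was lower by 0.59 (SE 0.09, limma adjusted p = 0.00402). Of 35 genes of TGF-β, activin and BMP signalling 4 were lower (1.8% of all genes were) and 31 did not pass. TGFB1 and ACVR1, the other 2, passed in 5 and 1 of 12 fits. Just 1 of the 4, FST, was lower without the 3 raised-floor arrays, where TGFBR3 had an adjusted p of 0.0517 by limma.

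In the Notch pathway 5 of 26 genes were lower, against 1.8% of all genes, and 21 did not pass. HEY1, a transcriptional target of Notch, read 7.55, 7.46, 7.54 and 7.42 against 7.93, 8.17, 8.55 and 8.55 (1.75-fold lower, SE 0.12, limma adjusted p = 0.00231). It was the member called in all 12 fits. The coactivator MAML2 was lower by 0.62 (SE 0.12, limma adjusted p = 0.0153), though not without HIF-1α knockdown replicate 3 (adjusted p = 0.0666) or HIF-2α knockdown replicate 4 (0.0568). The ligand JAG1 and the target HES1 passed in 8 and 7 of 12 fits and DLK1, a non-canonical ligand, in 4. Without the 3 raised-floor arrays 1 Notch gene was lower, and with median centring 3.

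ANKRD1, a target of the Hippo effectors YAP and TAZ, was 2.88-fold lower (SE 0.22, limma adjusted p = 0.00207), at 9.59, 9.73, 8.85 and 8.87 against 10.23, 10.91, 11.06 and 10.94. CCN2, above, is another known Hippo target, and these were the 2 of 20 that were called. Of 30 immediate early genes 5 were lower and 25 did not pass, with 26 negative and a median of -0.10. Over all 18404 genes 1.8% were lower, and 10185 had a negative difference. IER3 read 11.12, 11.24, 11.85 and 11.39 in HIF-1α knockdown and 10.06, 10.30, 10.36 and 9.92 in HIF-2α knockdown (2.36-fold lower, SE 0.16, limma adjusted p = 0.00101). The other 4, ZFP36, SPRY4, SPRY2 and EGR1, differed by -0.29 to -0.54 and passed in 6 to 9 of 12 fits. Just 1 of the 30 was lower once the 3 raised-floor arrays were left out.

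**Figure D3:**
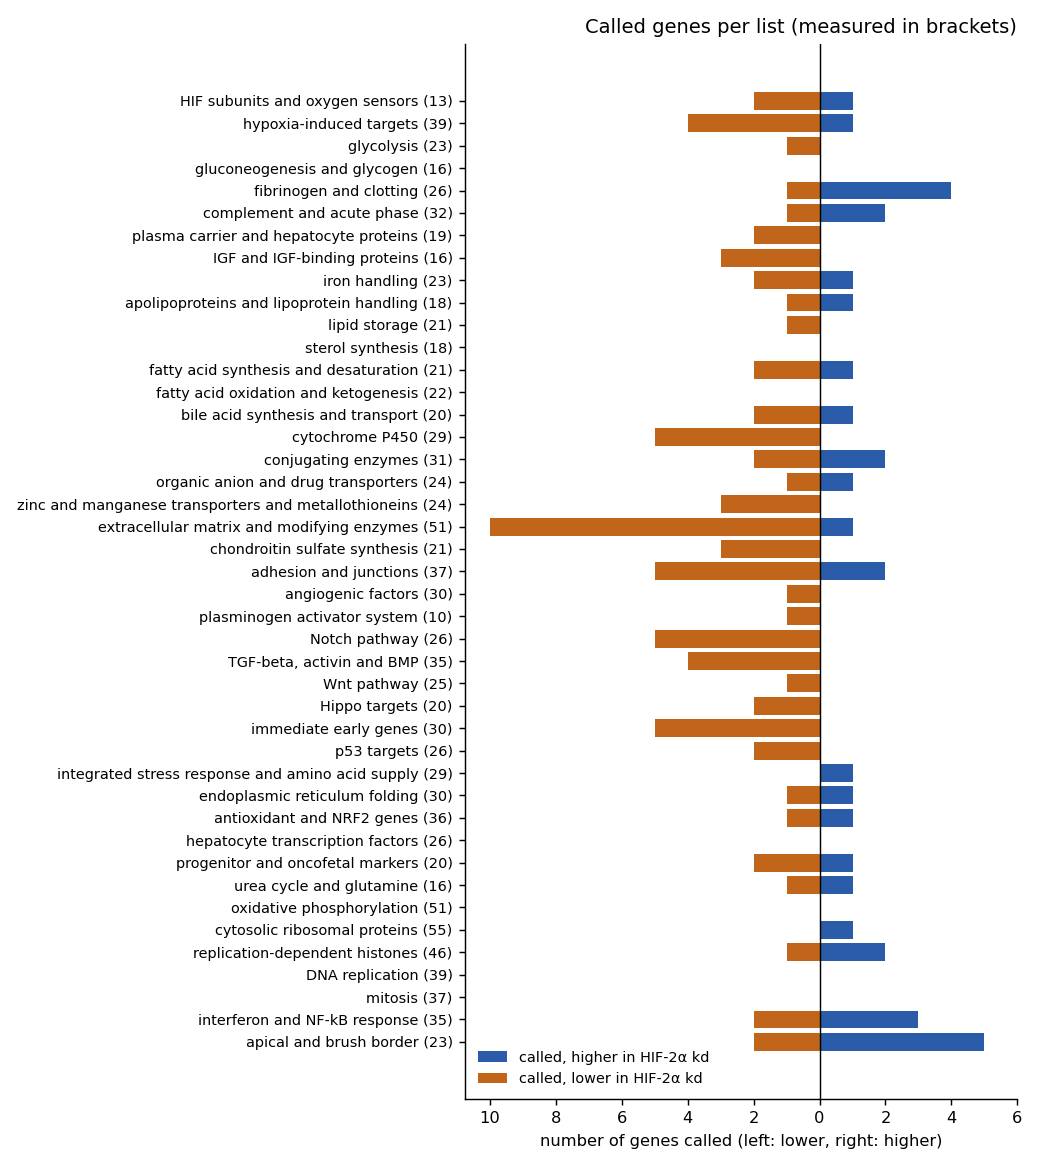
Number of called genes (horizontal axis) in each gene list, with the number of measured members in brackets: orange bars to the left are genes lower in HIF-2α knockdown (kd) and blue bars to the right genes higher. The longest bar is that of the 10 lower matrix genes; the lists share some members and were chosen with earlier results known.

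Lipid and drug metabolism held some of the largest single differences. SPTSSB, a small subunit that tunes the chain length used by serine palmitoyltransferase in sphingolipid synthesis, read 6.95, 7.04, 6.81 and 7.01 in HIF-1α knockdown and 8.75, 8.70, 8.43 and 8.41 in HIF-2α knockdown. It was 3.07-fold higher with no overlap (SE 0.09, limma adjusted p = 7.23e-07). FADS2, the desaturase that starts the making of long polyunsaturated fatty acids, was lower, at 9.10, 8.85, 9.10 and 9.12 against 10.42, 10.07, 10.25 and 10.06 (2.23-fold, SE 0.13, limma adjusted p = 0.00032). ELOVL7, a fatty acid elongase, was higher at 8.66 to 8.82 against 7.93 to 8.07 (1.66-fold, SE 0.08, limma adjusted p = 0.000367). With ELOVL6, lower by 0.58 and called in 4 of 12 fits, these made 3 of 21 genes of fatty acid synthesis and desaturation. PLTP, the phospholipid transfer protein of plasma, was lower by 0.76 (SE 0.12, limma adjusted p = 0.00345), and the receptor VLDLR was higher by 0.47 (SE 0.07, limma adjusted p = 0.00327).

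Bile acid genes were split. AKR1D1, the steroid reductase of bile acid synthesis, was higher, at 9.44, 9.34, 9.18 and 9.10 against 8.64, 8.51, 8.41 and 8.31 (1.74-fold, SE 0.09, limma adjusted p = 0.000468). SLC51B, a subunit of the basolateral bile acid exporter, was lower, at 8.05, 7.79, 8.21 and 7.84 against 8.96, 9.13, 9.22 and 8.81 (2.08-fold, SE 0.12, limma adjusted p = 0.000492). ABCB4, the canalicular phospholipid exporter, was lower by 0.41 (SE 0.06, limma adjusted p = 0.00271). The other 17 of 20 did not pass.

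Of 29 cytochrome P450 genes 5 were lower and 24 did not pass, while 1.8% of all genes tested were lower. With each array centred on its median, and also without the 3 raised-floor arrays, 3 of the 29 were lower. CYP24A1, which inactivates vitamin D, read 9.90, 10.14, 9.16 and 9.51 against 10.58, 10.96, 10.97 and 10.73 (2.19-fold lower, SE 0.16, limma adjusted p = 0.00216). CYP19A1, the aromatase that makes oestrogens, was at 7.70 to 8.13 against 8.58 to 8.98 (1.78-fold lower, SE 0.10, limma adjusted p = 0.000597). CYP4F2 was lower by 0.55 (SE 0.10, limma adjusted p = 0.0132), but not without HIF-1α knockdown replicate 3 (adjusted p = 0.0567). CYP3A43 and CYP2S1 passed in 4 of 12 fits each, CYP2S1 being outside the naming rule. FMO5, a flavin monooxygenase that oxidises drugs, was lower at 7.99, 8.39, 8.39 and 8.21 against 9.10, 9.43, 9.82 and 9.49 (2.33-fold, SE 0.20, limma adjusted p = 0.00521).

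UGT2A3, a glucuronosyltransferase, was higher, at 10.15, 10.74, 10.02 and 10.17 against 9.31, 9.50, 9.18 and 9.31 (1.92-fold, SE 0.12, limma adjusted p = 0.00112). SULT2A1 and GSTA1, a sulfotransferase and a glutathione transferase, were lower by 0.44 and 0.65 and passed in 9 and 8 of 12 fits. Of 31 conjugating enzymes 2 were higher (0.967% of all genes were), 2 lower (1.8%) and 27 did not pass. UGT2B10, the other higher enzyme, passed in 4 of 12 fits. ABCG2, an exporter of drugs and urate, was lower by 0.78 (SE 0.13, limma adjusted p = 0.00546). SLCO4C1, an organic anion transporter, read 8.61, 8.94, 8.23 and 8.16 in HIF-1α knockdown and 9.77, 10.64, 9.79 and 9.13 in HIF-2α knockdown (2.54-fold higher, SE 0.28, limma adjusted p = 0.0206). It was not called without HIF-1α knockdown replicate 3 (adjusted p = 0.0833) or replicate 4 (0.0643), and the mean of its 2 probe sets differed by 0.74.

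CDO1, which oxidises cysteine on the way to taurine, read 7.97, 8.18, 7.82 and 7.84 in HIF-1α knockdown and 9.81, 9.62, 9.07 and 9.03 in HIF-2α knockdown (2.70-fold higher, SE 0.16, limma adjusted p = 0.000438). DIO1, a selenoprotein that activates thyroid hormone, was higher at 10.27, 10.36, 10.15 and 10.50 against 9.48, 9.53, 9.31 and 9.03 (1.98-fold, SE 0.10, limma adjusted p = 0.000207). GPX3, a secreted selenoprotein that reduces peroxides, went the other way, at 10.18 to 10.71 against 11.08 to 11.64 (1.82-fold lower, SE 0.17, limma adjusted p = 0.0139). Its call was lost without HIF-1α knockdown replicate 3 (adjusted p = 0.0552) and without HIF-2α knockdown replicate 4 (0.0525). These were the 2 of 36 antioxidant and redox genes that were called. MT1G, a metal-binding metallothionein, was lower by 0.83 (SE 0.15, limma adjusted p = 0.00824), at 10.21 to 10.95 against 11.08 to 11.47. It was not called without the 3 raised-floor arrays (limma adjusted p = 0.0759). Of 24 measured zinc and manganese transporters and metallothioneins 3 were lower, where 1.8% of all genes were. MT1H and SLC39A1, the others, passed in 7 and 5 of 12 fits. After quantile normalization 8 of the list were lower, and with median centring 1.

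RCN1, the reticulocalbin that binds calcium inside the secretory pathway, read 8.96, 9.10, 9.16 and 8.97 in HIF-1α knockdown and 7.93, 8.03, 8.14 and 7.88 in HIF-2α knockdown (2.07-fold lower, SE 0.08, limma adjusted p = 8.78e-06). ERP27, a redox-inactive relative of protein disulfide isomerase, was higher by 0.74 (SE 0.16, limma adjusted p = 0.0241, called in 6 of 12 fits). The remaining 28 of 30 folding genes did not pass.

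Of 23 measured genes listed as apical or brush border 5 were higher and 2 lower, where 0.967% and 1.8% of all genes were. The members were chosen with earlier results of these data known, which favours such counts. Without the 3 raised-floor arrays 4 were higher and 1 lower. CUBN, the endocytic receptor cubilin, read 6.82, 6.81, 6.79 and 6.81 in HIF-1α knockdown and 7.32, 7.42, 7.52 and 7.46 in HIF-2α knockdown (difference 0.62, SE 0.05, limma adjusted p = 2.82e-05). MEP1A, a brush border metalloprotease, was at 8.0 to 8.63 against 7.23 to 7.39 (1.95-fold higher, SE 0.13, limma adjusted p = 0.00112). CARMIL1, a regulator of actin capping, PLEKHH2 and villin (VIL1) were the other 3, at differences of 0.69, 0.75 and 0.52. VIL1 lies outside the naming rule. In HIF-1α knockdown all arrays of CUBN, MEP1A, CARMIL1 and PLEKHH2 lay under the median gene level of 7.69. The HIF-2α knockdown arrays of CUBN did so too. ABCB4, given above, and CEACAM1, called in 4 of 12 fits and named after its values were seen, were the lower members. PROM1, the membrane protrusion protein also used as a progenitor marker, was higher at 8.42 to 8.68 against 7.51 to 7.81 (1.84-fold, SE 0.08, limma adjusted p = 5.54e-05).

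The remaining lists are given in brief. Of 35 interferon and NF-κB response genes 3 were higher and 2 lower, where 0.967% and 1.8% of all genes were. Of these IFI6, higher, and XAF1, lower, passed in 11 and 5 of 12 fits. XAF1 was named after its values were seen. IFIH1, the viral RNA sensor MDA5, was higher at 7.60 to 7.81 against 7.15 to 7.34 (difference 0.40, SE 0.07, limma adjusted p = 0.00714). NFKBIZ, an atypical IκB protein, was higher (difference 0.34, SE 0.06, limma adjusted p = 0.00466).

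Of 20 progenitor and oncofetal markers CD24, a surface glycoprotein, was lower (difference -0.58, SE 0.13, limma adjusted p = 0.0285, called in 8 of 12 fits), with DLK1 also lower and PROM1 higher. Among all genes 1.8% were lower and 0.967% higher. In the urea cycle and glutamine list of 16, the mitochondrial arginase ARG2 was lower (difference -0.65, SE 0.15, limma adjusted p = 0.0308, called in 8 of 12 fits) and CPS1, the entry enzyme of the cycle, was higher (difference 0.38, SE 0.09, limma adjusted p = 0.0474, called in 3 of 12 fits). The Wnt receptor FZD4 was the 1 of 25 Wnt genes called, lower (difference -0.35, SE 0.07, limma adjusted p = 0.0188, called in 9 of 12 fits). Beside GDF15, the death receptor TNFRSF10B was lower among 26 p53 targets (difference -0.34, SE 0.06, limma adjusted p = 0.00959), though not without the 3 raised-floor arrays (adjusted p = 0.0551). Of 26 hepatocyte transcription factors and 37 mitosis genes 0 were called by limma. An unadjusted limma p under 0.05 was found for 6 and 2 of them, and for 2500 of all 18404 genes.

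Further large rises were those of LRRTM4, a leucine-rich repeat membrane protein, ODAM, a protein first described in enamel, and RELN, the secreted matrix glycoprotein reelin. LRRTM4 read 9.0, 9.15, 8.91 and 8.97 against 7.85, 7.61, 7.48 and 7.88 (2.47-fold, SE 0.09, limma adjusted p = 6.59e-06). ODAM was at 9.17 to 9.48 against 8.06 to 8.36 (2.23-fold, SE 0.08, limma adjusted p = 8.78e-06). RELN was at 11.51 to 12.17 against 10.74 to 11.12 (1.88-fold, SE 0.13, limma adjusted p = 0.00232). Other falls of at least 2-fold were those of LCN15, a lipocalin, at 7.70 to 7.79 against 8.63 to 8.98 (difference -1.08, SE 0.10, limma adjusted p = 7.25e-05), and DEPP1, at 7.67 to 7.99 against 8.59 to 9.38 (difference -1.11, SE 0.17, limma adjusted p = 0.00326).

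H2BC12, a histone H2B gene, read 8.82, 9.18, 9.67 and 9.29 in HIF-1α knockdown and 7.55, 7.74, 7.70 and 7.79 in HIF-2α knockdown (2.91-fold lower, SE 0.15, limma adjusted p = 0.00012). H2BC3, a near-identical H2B gene, was higher by 0.82 (SE 0.19, limma adjusted p = 0.0356, called in 5 of 12 fits). Because members of this family share much of their sequence, signals of single histone genes are uncertain. Of 46 replication-dependent histone genes these and H2BC10 were called, 2 higher and 1 lower. H2BC10 passed in 5 of 12 fits.

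Of 55 ribosomal protein genes 54 had a positive difference (median 0.29), against 8219 of all 18404 genes. RPL11 was the 1 called, at 11.61 to 12.49 against 11.20 to 11.64, an overlap. Its difference was 0.76 (SE 0.16, limma adjusted p = 0.0206, called in 8 of 12 fits). The mean of the list was 11.57, 12.06, 11.79 and 12.09 in HIF-2α knockdown replicates 1, 2, 3 and 4, and 11.46 to 11.78 in HIF-1α knockdown. Replicates 2 and 4, the highest, are the arrays set apart in the checks above. Without HIF-2α knockdown replicate 2 the list median was 0.24, and without the 3 raised-floor arrays 0.22. After quantile normalization the list median was 0.14, with 2 called higher. DNA replication genes were likewise positive in 34 of 39 with a median of 0.11. Their list mean was 9.838 in HIF-2α knockdown replicate 2 and 9.595 to 9.632 on that group's other arrays. In HIF-1α knockdown it was 9.509 to 9.577. Without HIF-2α knockdown replicate 2 the list median was 0.06. By limma 0 of these genes were called, and 10 had an unadjusted p under 0.05, against 2500 of all 18404 genes. After quantile normalization 6 were called higher. FGA, a bright gene, kept its call under that normalization.

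The 2 knockdowns share the wild type arrays here, so their values are given side by side and their agreement is not a result. Because the genes were chosen for a difference between knockdowns, a wild type mean between them is favoured by the choice itself. That mean lay between the knockdown means for 155 of the 178 higher genes and 255 of the 331 lower genes. Among higher genes wild type was nearer to HIF-1α knockdown in 133 and nearer to HIF-2α knockdown in 45. Among lower genes the counts were 120 and 211. Against wild type, 177 genes (0.962%) were called in HIF-1α knockdown and 145 (0.788%) in HIF-2α knockdown. Of the 178 higher genes, 11 were called against wild type in HIF-1α knockdown and not in HIF-2α knockdown, 37 the reverse, 7 in both and 123 in neither. Of the 331 lower genes the counts were 72, 41, 2 and 216. Most genes called between the knockdowns thus did not pass against wild type in either.

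**Figure D4:**
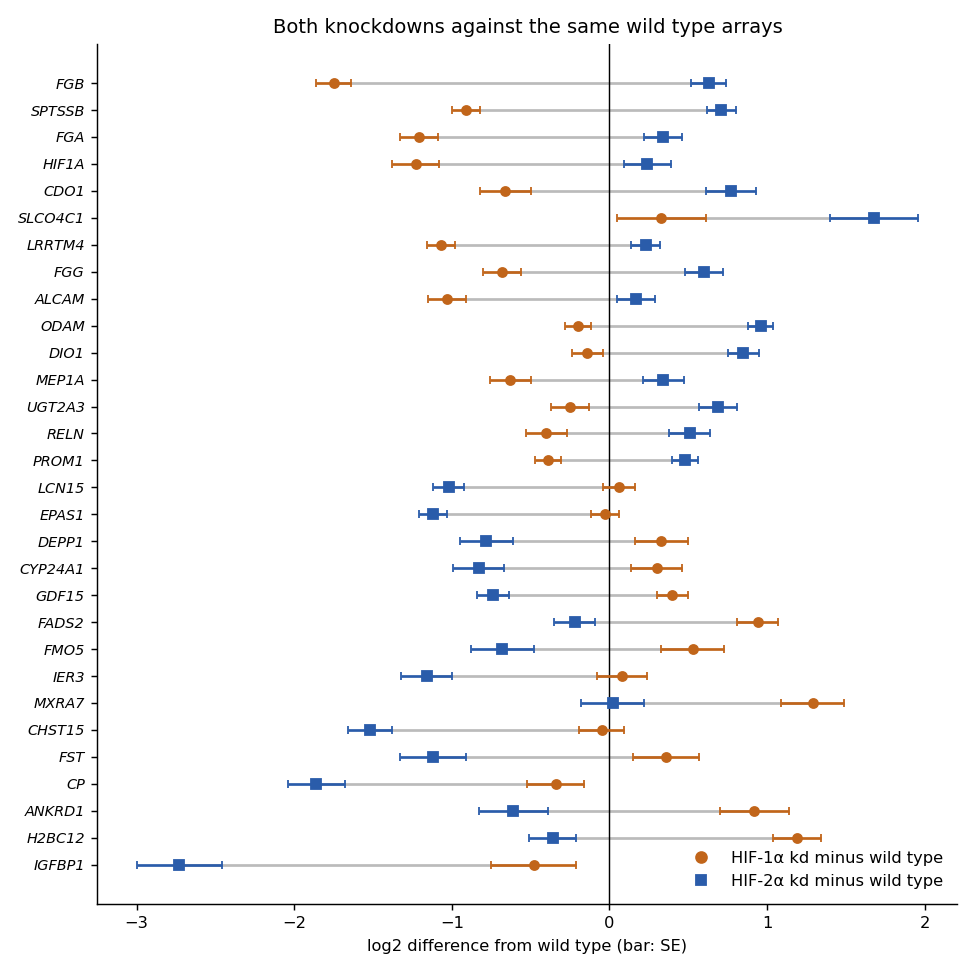
Log2 difference from wild type (horizontal axis, bar ± SE) in HIF-1α knockdown (kd, orange circles) and HIF-2α knockdown (blue squares) for the 15 largest rises and 15 largest falls, HIF1A and EPAS1 among them, between the knockdowns, from the same 4 wild type arrays. IGFBP1, CP and CHST15 lie near or below 0 in HIF-1α knockdown and far below in HIF-2α knockdown, while H2BC12 and MXRA7 lie above 0 in HIF-1α knockdown.

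Some leading genes passed against wild type in one knockdown and not in the other. For CHST15 the difference from wild type was -0.05 in HIF-1α knockdown (SE 0.14, limma adjusted p = 0.93) and -1.52 in HIF-2α knockdown (limma adjusted p = 0.000324). For LRRTM4 it was -1.07 in HIF-1α knockdown (SE 0.09, limma adjusted p = 0.000116) and 0.23 in HIF-2α knockdown (adjusted p = 0.287). MXRA7 was 1.29 above wild type in HIF-1α knockdown (SE 0.20, limma adjusted p = 0.00763) and differed by 0.02 in HIF-2α knockdown (adjusted p = 0.984). Others lay on opposite sides of wild type without passing in either knockdown: ANKRD1 was at 0.92 in HIF-1α knockdown and -0.61 in HIF-2α knockdown (adjusted p = 0.0673 and 0.252), and CDO1 at -0.66 and 0.77 (adjusted p = 0.079 and 0.0502).

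Of 9 genes called in all 3 comparisons 8 lay on opposite sides of wild type. FGB was 1.75 below wild type in HIF-1α knockdown and 0.63 above it in HIF-2α knockdown (limma adjusted p = 9.03e-06 and 0.0196). SPTSSB differed by -0.91 and 0.71, FGG by -0.68 and 0.60, and PROM1 by -0.39 and 0.48. PLEKHH2 differed by -0.43 and 0.32, CARMIL1 by -0.34 and 0.35, and CUBN by -0.26 and 0.36. SERPINE2 had the opposite order, at 0.42 in HIF-1α knockdown and -0.45 in HIF-2α knockdown. In HIF-1α knockdown all arrays of SPTSSB, PLEKHH2, CARMIL1 and CUBN lay under the median gene level. The ninth, TACC1, was above wild type in both, by 1.30 and 0.65, and lower in HIF-2α than in HIF-1α knockdown by 0.66 (SE 0.11, limma adjusted p = 0.00639); it was named after its values were seen.

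**Figure D5:**
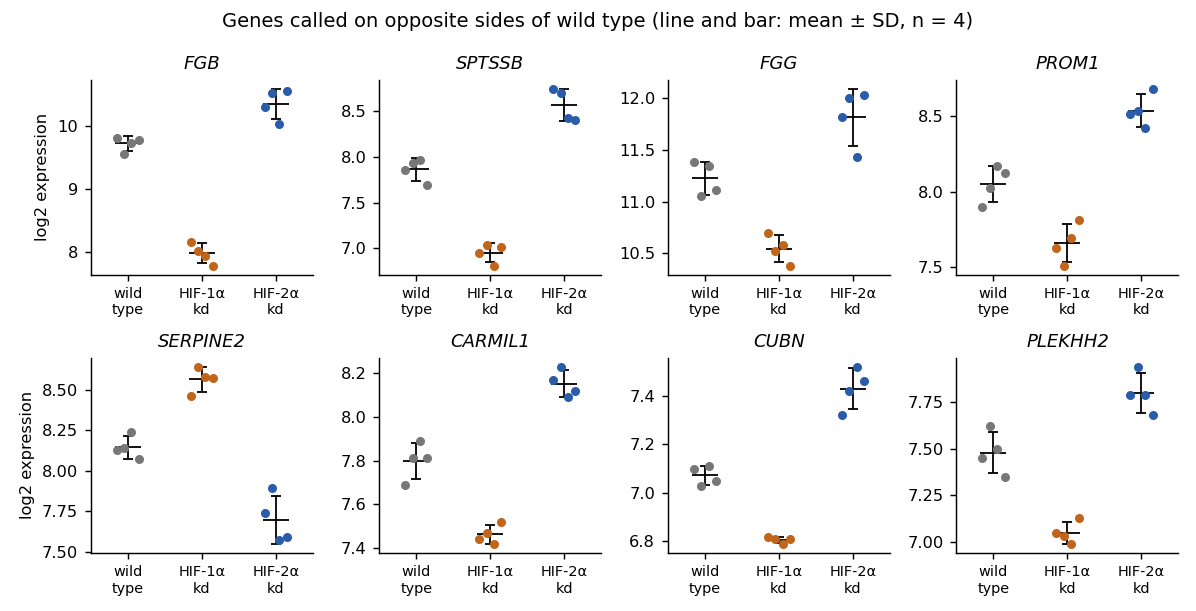
Log2 expression (vertical axis, scaled per gene) on every array for the 8 genes called on opposite sides of wild type; points are arrays (kd, knockdown), and the line and bar give the mean ± SD of 4 arrays. In 7 panels HIF-1α knockdown is lowest and HIF-2α knockdown highest, and in SERPINE2 the order is reversed.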

How the data were processed

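RNA of 12 HepG2 spheroid samples was measured on Affymetrix gene arrays, 4 per group. The authors deposited log2 values for 32321 probe sets. How they were summarized and normalized is not given in the sources used here, and the log2 scale was inferred from the range of the values. The platform annotation gave 1 symbol for 19158 probe sets, several for 1388 and none for 11775. Symbols were updated through the RefSeq table of GRCh38.p14, 19128 by Entrez number and 4 by symbol, with 26 kept as they were. The probe set with the highest mean stood for each of 637 genes with more than 1. No array values were changed or filtered.

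limma 3.58.1 (R 4.3.3) was fitted to group means over all 12 arrays, with moderated standard errors and Benjamini-Hochberg adjustment over 18404 genes. The fit was checked on simulated data. The number of arrays limits the precision. Named genes were HIF1A and EPAS1, the 15 largest rises and 15 largest falls among called genes without overlap, up to 4 called members per list by smallest p, and up to 8 genes called on opposite sides of wild type. Members and lists were chosen with earlier results of these data known. The alternatives tried were the 8 knockdown arrays alone, quantile normalization, median centring, a filter on dim genes, the mean of probe sets, an intensity trend, array weights, the replicate number as a block, leaving out 3 arrays with a raised floor, and leaving out each array in turn.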

Additional observations from a re-analysis of the deposited data

Results flagged for a closer look

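In 16 of 306 groups of 4 arrays tested (5.23%), the highest or lowest array stood far from the other 3 for its range, by Dixon's criterion; chance gives about 5 in 100. HIF-1α knockdown replicate 3 was the highest of its group for GDF15 (11.78, next 11.38), NDRG1 (10.42, next 10.19), CCN2 (11.93, next 11.62) and FZD4 (10.64, next 10.46). It was the lowest for ALCAM (8.41, next 8.65) and ERP27 (8.72, next 8.93). Of the other HIF-1α knockdown arrays, replicate 1 was lowest for SLC40A1 (8.66, next 8.90) and replicate 4 for TNFRSF10B (10.22, next 10.40).

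HIF-2α knockdown replicate 2 was lowest for FADS2 (8.85, next 9.10) and CYP4F2 (7.75, next 8.04) and highest for IFIH1 (7.81, next 7.61). HIF-2α knockdown replicate 1 was lowest for H2BC10 (6.64, next 6.90). In wild type, replicate 3 was highest for FST (10.80, next 9.88) and replicate 4 for PFKP (7.49, next 7.25), while replicate 1 was lowest for ICAM1 (9.22, next 9.56) and replicate 2 for H2BC3 (8.92, next 9.51).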

How the results depend on the processing

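Against 178 higher and 331 lower genes, quantile normalization gave 342 and 546 and array weights 363 and 617. Centring each array on its median gave 204 lower genes, and leaving out the 3 arrays with a raised floor 140. Leaving out 1 array gave 79 to 229 higher and 132 to 403 lower genes. The cause was not tested. HIF1A and EPAS1 were called under all 21 alternatives. Of the other 100 named genes 52 were called under all of them, 48 lost the call under at least 1, and 0 changed direction. With the replicate number as a block, 194 genes were higher and 368 lower, 448 of them shared with the 509. The deviations of same-numbered arrays correlated at 0.131, 0.217, 0.028 and 0.061 between the knockdowns, at 0.17, 0.306, 0.637 and -0.039 between wild type and HIF-1α knockdown, and at -0.171 to -0.027 between wild type and HIF-2α knockdown. Not every pair was above 0.1, and the main fit did not take the numbers to pair the arrays. Between the knockdowns 1 of 4 arrays correlated best with its own number. Whether some numbers mark a shared experiment was not tested.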
